A study of Mus musculus with 16 samples.

Results

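A set of 10 genes that make or control MHC class I and load it with peptide was chosen by name, comprising H2-K1, H2-D1, B2m, Tap1, Tap2, Tapbp, Nlrc5, Psmb8, Psmb9 and Psmb10. All 10 were present among the 21878 mRNA rows of the deposited tables, and all 10 passed the filter of at least 16 counts in total that left 17885 mRNAs for testing. RNA-seq libraries came from CD11b+/CD45int cells, labelled microglia, that were sorted from the brains of female WT C57BL/6 mice aged 8 weeks. In the EAE group (8 libraries, EAE 1 to EAE 8), mice were immunized with MOG peptide in complete Freund's adjuvant and received 200 ng of pertussis toxin per dose, and brains were taken at peak disease. In the PBS group (8 libraries, PBS 1 to PBS 8), mice received injections of PBS, so that the effects of the peptide, the adjuvant, the toxin and the disease cannot be told apart. The protocol gives MOG residues 35 to 55, while the treatment label has a last residue that increases by 1 from mouse to mouse, up to 62 in EAE 8.

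Nearly every nucleated cell can display peptides of its own proteins on MHC class I. The proteasome cuts proteins into peptides, the transporter TAP carries the peptides into the endoplasmic reticulum, tapasin and its partner chaperones place them on a heavy chain bound to β2-microglobulin, and the complex moves to the cell surface for CD8 T cells to read. Interferons raise most of these genes together, partly through the transactivator NLRC5, and they also replace the catalytic subunits of the proteasome by the immunoproteasome subunits. Microglia at rest carry little class I and raise it in inflamed brain tissue.

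Total counts per library ranged from 24587443 to 34184576. The labelled cell type was compared with its markers. The summed FPKM of 17 microglia markers was 229–371 (median 325) in EAE libraries and 211–348 (median 250) in PBS libraries, whereas that of 12 neuron markers was 1581–1806 and 1770–1924. Astrocyte markers (10 genes) summed to 1242–1883 and 1453–1717, and oligodendrocyte markers (10 genes) to 945–1327 and 1042–1282. Thus RNA of neurons and of other glia was abundant in every library, and the values below are levels in this RNA mixture, in which fewer cells of a type and less RNA per cell cannot be told apart. EAE 6, 7 and 8 and PBS 5, 7 and 8 were more alike than the other libraries of their groups. The median squared difference between libraries, divided by that of counting noise, was 3.14–3.57 and 3.30–3.94 within these sets and 5.85–22.6 and 7.03–21.4 for the remaining pairs. No label names a batch for them. These sets were picked from the same data for their likeness, so p-values within them rest on a spread made smaller by the choice.

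Of the 10 members, 7 lie in or beside the MHC on chromosome 17 of GRCm38, which are H2-K1 (chr17:33996017-34000347, minus strand), H2-D1 (chr17:35262730-35267499, plus), Tapbp (chr17:33915899-33929292, plus), Psmb9 (chr17:34181987-34187764, minus), Tap1 (chr17:34187553-34197225, plus), Psmb8 (chr17:34197721-34201454, plus) and Tap2 (chr17:34203527-34216321, plus). B2m lies on chromosome 2 (chr2:122147686-122153083, plus), and Nlrc5 (chr8:94434356-94527272, plus) and Psmb10 (chr8:105935735-105938444, minus) lie on chromosome 8. The annotated spans of Tap1 and Psmb9 overlap on opposite strands. B2m overlaps the protein-coding gene Patl2 on the opposite strand, and Tapbp overlaps the protein-coding gene Zbtb22 on the same strand. The other overlaps of Tap2, Psmb8, Psmb10, Nlrc5 and Tapbp are with antisense or non-coding genes. The strand setting of the read counting was not stated, so reads in such overlaps are uncertain. Those in the overlap of Tapbp and Zbtb22 cannot be told apart by strand. For H2-D1, 4.64% of the 100-base windows of its transcript occurred also in another gene, chiefly H2-Q1 (4.24%), and for H2-K1 there was no such window.

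The start-site regions of the class I chains and of Tap1 are shown because the class I genes share elements there. That of Psmb8 is shown as well, as the only window with a gamma-activated site. RefSeq windows of 250 bases before to 50 bases after the start on GRCm38.p6 were found for 8 of the 10 members. Capitals mark CCAAT boxes (CCAAT on either strand, present in 37.4% of 32851 mouse promoter windows), the core of an interferon-stimulated response element (GAAANNGAAA on either strand, 3.44%) and gamma-activated sites (TTCNNNGAA on either strand, 8.30%). The core letters of the cyclic AMP response element, TGACG, were searched on both strands too (20.8%) and are left in lower case.
H2-K1, chr17:34000284-34000583, minus strand: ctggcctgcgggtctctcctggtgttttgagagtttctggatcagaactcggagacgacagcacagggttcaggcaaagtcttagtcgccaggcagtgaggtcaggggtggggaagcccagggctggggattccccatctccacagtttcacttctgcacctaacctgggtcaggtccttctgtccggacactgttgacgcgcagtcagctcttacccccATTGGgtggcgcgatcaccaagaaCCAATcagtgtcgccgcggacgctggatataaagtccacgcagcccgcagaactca
H2-D1, chr17:35262844-35263143, plus strand: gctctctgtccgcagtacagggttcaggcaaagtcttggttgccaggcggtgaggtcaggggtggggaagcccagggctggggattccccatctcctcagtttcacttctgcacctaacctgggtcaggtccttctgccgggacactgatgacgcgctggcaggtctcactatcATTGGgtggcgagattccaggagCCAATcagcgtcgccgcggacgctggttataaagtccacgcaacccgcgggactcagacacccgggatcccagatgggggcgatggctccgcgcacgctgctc
B2m, chr2:122147437-122147736, plus strand: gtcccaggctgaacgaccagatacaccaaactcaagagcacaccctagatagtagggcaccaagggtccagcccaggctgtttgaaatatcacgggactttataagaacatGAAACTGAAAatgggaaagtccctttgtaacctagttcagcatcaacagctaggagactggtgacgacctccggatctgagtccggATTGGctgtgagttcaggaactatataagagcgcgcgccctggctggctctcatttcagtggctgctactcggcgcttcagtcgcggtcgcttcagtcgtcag
Tap1, chr17:34187306-34187605, plus strand: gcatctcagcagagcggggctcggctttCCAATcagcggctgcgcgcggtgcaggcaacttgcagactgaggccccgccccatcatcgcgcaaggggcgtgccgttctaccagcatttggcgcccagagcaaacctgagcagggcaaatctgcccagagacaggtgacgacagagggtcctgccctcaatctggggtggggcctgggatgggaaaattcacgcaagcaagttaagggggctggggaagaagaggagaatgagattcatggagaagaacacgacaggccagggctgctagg
Psmb8, chr17:34197945-34198244, plus strand: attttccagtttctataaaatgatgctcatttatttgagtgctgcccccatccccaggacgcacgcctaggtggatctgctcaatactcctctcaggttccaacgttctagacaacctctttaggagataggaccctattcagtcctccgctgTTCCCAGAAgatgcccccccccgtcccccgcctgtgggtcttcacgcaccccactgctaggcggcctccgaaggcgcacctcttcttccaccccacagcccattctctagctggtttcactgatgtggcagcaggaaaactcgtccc
In the windows of H2-K1 and H2-D1, 241 bases aligned with 90.0% identity, and both held a TGACG followed by a pair of CCAAT boxes on opposite strands. The B2m window held a match to GAAANNGAAA with its first base 139 bases before the start, together with a CCAAT box and TGACG. The Tap1 window held a CCAAT box and TGACG, and 275 of its bases are also those of the Psmb9 window, since these genes start back to back. A gamma-activated site was found 97 bases before the start in the Psmb8 window. Among the 8 members with a window, 6 held a CCAAT box, 5 held TGACG, 1 held GAAANNGAAA and 1 held TTCNNNGAA. The Psmb10 window held none of them, and the windows of Tapbp, Psmb9 and Psmb10 are not shown. Tap1 and Psmb9 are both counted for CCAAT and TGACG, although their matches are the same bases. Interferon elements with other letters were not searched, so these counts do not show which windows lack one. These matches describe the letters of the windows and no binding was measured.

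To determine whether the class I pathway differed between EAE mice and PBS-treated mice, the edgeR quasi-likelihood test was run on the raw counts of all mRNAs. None of the 10 members had an adjusted p under 0.05, against 433 of all 17885 mRNAs (2.42%). With the additional threshold of |log2FC| over 1, the count was again 0, against 0.117% of all mRNAs. DESeq2 and limma on log2(FPKM + 0.1) or log2(FPKM + 1) also called 0 members, as did the exact permutation test, which called 0 of all mRNAs. In edgeR, 1 member (Nlrc5) was called with a term for the sets of libraries most alike, against 768 of 17885 mRNAs. The fit of these 6 libraries alone called 2 (Nlrc5 and B2m), against 4147 of 17239 mRNAs. At an unadjusted p under 0.05 in the edgeR test, 2 members, Nlrc5 and Tap1, were higher in EAE mice, against 7.92% of all mRNAs. The fitted log2FC was above 0 for 9 of the 10 members, against 9417 of 17885 mRNAs. Its median was 0.17 over the members and 0.0092 over all mRNAs tested. The FPKM ranges of the groups overlapped for every member, as they did for all but 0.263% of mRNAs.

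**Figure D1:**
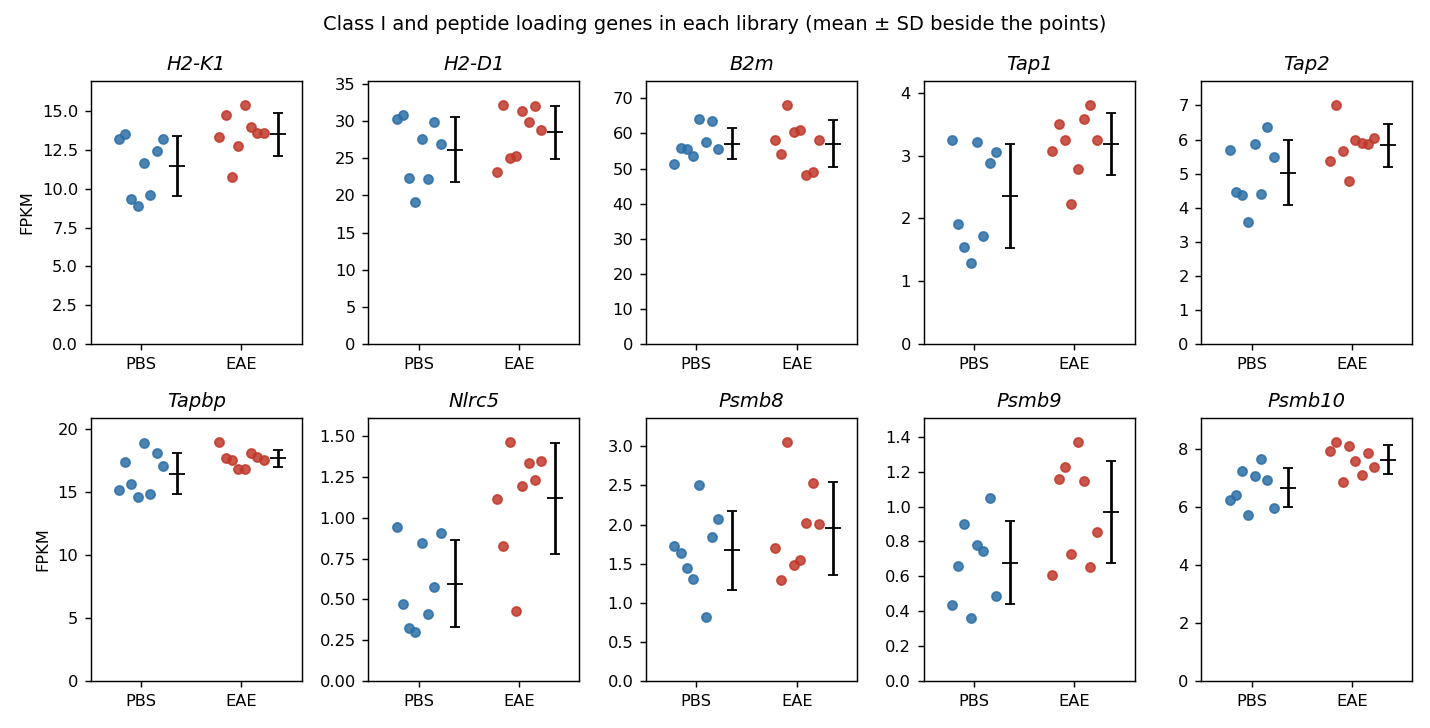
FPKM of the 10 members in each of the 8 PBS libraries (blue) and 8 EAE libraries (red), with the mean and SD beside the points and each vertical axis starting at 0. The groups overlap in every panel, and the separation is clearest for Nlrc5, where 6 EAE libraries lie above all PBS libraries.

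Among the members, the light chain had the highest level per length, followed by the classical heavy chain H2-D1. The other classical heavy chain, H2-K1, lay below Tapbp in every library. B2m, which encodes β2-microglobulin, ranged from 48.1 FPKM (EAE 6) to 68.1 FPKM (EAE 3) with a median of 58.1 in EAE mice, and from 51.3 (PBS 1) to 64.2 (PBS 5) with a median of 55.7 in PBS-treated mice. The EAE range enclosed the PBS range, and the group means were the same to 3 digits, at 57.1 ± 6.59 FPKM and 57.1 ± 4.52 FPKM (SD, n = 8 each). The log2FC was −0.052 (95% interval −0.19 to 0.088, adjusted p = 0.749 in the edgeR test). This interval places the fold between 0.876 and 1.06. Within EAE 6, 7 and 8 and PBS 5, 7 and 8, however, the log2FC of B2m was −0.27 (adjusted p = 0.00575 in edgeR). That fit called 4147 of 17239 mRNAs, and its libraries were picked for their likeness. Within the other 5 libraries of each group the log2FC was 0.072 (adjusted p = 0.823 in edgeR), in a fit that called 13 of 17461.

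H2-D1, a classical heavy chain that presents peptides to CD8 T cells, ranged from 23.1 FPKM (EAE 1) through a median of 29.3 to 32.2 FPKM (EAE 2) in EAE mice. In PBS-treated mice it ranged from 19.1 (PBS 4) through 27.3 to 30.8 FPKM (PBS 2). By FPKM, which is scaled by library totals, only 3 EAE libraries exceeded all PBS libraries. By CPM after TMM scaling, as in the edgeR test, PBS 2 was highest (55.7) and EAE 7 next (55.4). The log2FC was 0.073 (95% interval −0.13 to 0.27, adjusted p = 0.750 in edgeR). H2-K1, the other classical heavy chain, ranged from 10.8 (EAE 3) through 13.6 to 15.4 FPKM (EAE 5) in EAE mice and from 8.86 (PBS 4) through 12.1 to 13.5 FPKM (PBS 2) in PBS-treated mice. Here 5 EAE libraries exceeded all PBS libraries by FPKM, and 3 PBS libraries (PBS 3, 4 and 6) lay below all EAE libraries. By CPM after TMM scaling, only EAE 5 (32.8) and EAE 2 (31.1) exceeded the highest PBS library, PBS 2 (30.6). Its log2FC was 0.19 (SE 0.093, 95% interval −0.0075 to 0.38, adjusted p = 0.307 in edgeR). For both heavy chains the lower PBS values came from the same libraries, PBS 3, PBS 4 and PBS 6. Per unit length, the light chain exceeded the sum of H2-K1 and H2-D1 in every library, by 1.07 to 1.92 times.

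Among the genes for peptide transport and loading, Tap1 had the largest fitted difference. TAP1 and TAP2 form the peptide transporter. Tap1 ranged from 2.23 FPKM (EAE 4) through a median of 3.25 to 3.81 FPKM (EAE 7) in EAE mice, and from 1.29 (PBS 4) through 2.39 to 3.26 FPKM (PBS 1) in PBS-treated mice. The PBS libraries fell apart into PBS 2, 3, 4 and 6, at or below 1.90 FPKM and below every EAE library, and PBS 1, 5, 7 and 8, at or above 2.88 FPKM and within the EAE range. The log2FC of Tap1 was 0.38 (SE 0.17, 95% interval 0.022 to 0.75, unadjusted p = 0.0386 and adjusted p = 0.256 in edgeR). It was 0.19 within EAE 6, 7 and 8 and PBS 5, 7 and 8 (adjusted p = 0.235 in edgeR) and 0.55 within the other libraries (adjusted p = 0.344 in edgeR).

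Tap2 ranged from 4.79 FPKM (EAE 4) through 5.88 to 7.02 FPKM (EAE 2) in EAE mice, and from 3.59 (PBS 4) through 4.97 to 6.38 FPKM (PBS 7) in PBS-treated mice. As for Tap1, PBS 2, 3, 4 and 6 lay below every EAE library. Its log2FC was 0.16 (95% interval −0.054 to 0.38, adjusted p = 0.449 in edgeR), and within the 6 libraries most alike it was −0.025. Tapbp encodes tapasin, which holds the empty heavy chain at the transporter. It was the steadiest member in EAE mice, with values of 16.8–19.0 FPKM and a coefficient of variation of 3.97%, against 14.7–18.9 FPKM and 9.79% in PBS-treated mice. Its log2FC was 0.050 (95% interval −0.070 to 0.17, adjusted p = 0.707 in edgeR).

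Nlrc5, the transactivator of class I genes, had the largest log2FC of the members. It ranged from 0.429 FPKM (EAE 4) through a median of 1.21 to 1.47 FPKM (EAE 3) in EAE mice, and from 0.300 (PBS 4) through 0.523 to 0.944 FPKM (PBS 1) in PBS-treated mice. EAE 4 stood well below the other EAE libraries, of which the next lowest, EAE 2, was at 0.825 FPKM, whereas EAE 1, 3, 5, 6, 7 and 8 lay above all PBS libraries. Nlrc5 was 1.81-fold higher in EAE mice (95% interval 1.27 to 2.59, log2FC 0.86, SE 0.25) with an unadjusted p of 0.00221 and an adjusted p of 0.0667 in the edgeR test, so that the difference did not pass the threshold after adjustment in this fit. With a term for the sets of libraries most alike the adjusted p was 0.0256 in edgeR. These values rest on 68–285 counts per library. The exact permutation test of its mean FPKM gave p = 0.00637 (two-sided, all 12870 divisions, adjusted p over all mRNAs 0.126). Without EAE 4 the log2FC was 0.98 and the adjusted p 0.00949 in edgeR, without PBS 1 they were 0.97 and 0.0453, and without PBS 2 the adjusted p was 0.135. Within the 6 libraries most alike the log2FC was 0.73 (adjusted p = 0.000534 in edgeR), and in the other 5 of each group it was 0.98 (adjusted p = 0.256 in edgeR). Over all mRNAs, these fits called 4147 of 17239 and 13 of 17461.

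The immunoproteasome subunits differed less. Psmb8, Psmb9 and Psmb10 encode the catalytic subunits that interferon-gamma brings into newly made proteasomes. Psmb10 ranged from 6.85 FPKM (EAE 3) through 7.71 to 8.25 FPKM (EAE 2) in EAE mice and from 5.72 (PBS 4) through 6.67 to 7.67 FPKM (PBS 6) in PBS-treated mice. By FPKM, which is scaled by library totals, all 8 EAE libraries were above the PBS median, and 4 of them were above all PBS libraries. Its log2FC was 0.15 (SE 0.074, 95% interval −0.0067 to 0.30, adjusted p = 0.310 in edgeR), while the exact permutation test on FPKM gave p = 0.00653 (two-sided, adjusted p over all mRNAs 0.126). Psmb8 ranged from 1.28 (EAE 2) through 1.85 to 3.06 FPKM (EAE 3) in EAE mice and from 0.822 (PBS 6) through 1.68 to 2.50 FPKM (PBS 5) in PBS-treated mice. The groups overlapped over most of their ranges, and the log2FC was 0.17 (95% interval −0.27 to 0.62, adjusted p = 0.734 in edgeR). Psmb9, with only 11–44 counts per library, ranged from 0.606 (EAE 1) through 1.00 to 1.37 FPKM (EAE 5) and from 0.361 (PBS 4) through 0.701 to 1.05 FPKM (PBS 7). At this depth a log2FC of 0.46 had a 95% interval from −0.093 to 1.01 (adjusted p = 0.393 in edgeR).

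**Figure D2:**
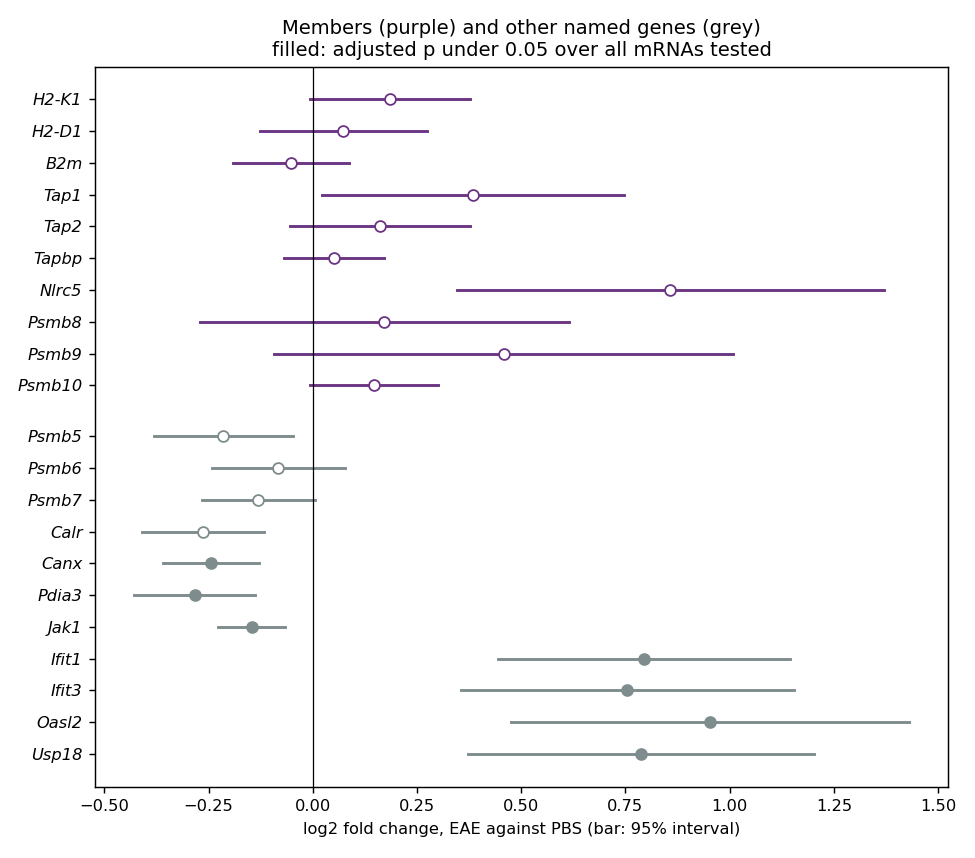
Fitted log2 fold change of EAE against PBS (horizontal axis, with 95% intervals) for the 10 members (purple) and for other named genes of the pathway and of the interferon response (grey), with filled points for an adjusted p under 0.05 in edgeR. No member is filled, and Nlrc5 has the largest estimate among them at 0.86.

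Each immunoproteasome subunit takes the place of a constitutive subunit, so their RNA levels were compared as a ratio. Within a library this ratio does not depend on how libraries are scaled. It was taken in the RNA mixture described above, and the part of the mix of cells in it was not tested. Psmb10 reached 15.3–22.5% of the FPKM of its counterpart Psmb7 in EAE libraries and 14.1–17.7% in PBS libraries, with means of 18.6% ± 2.21 and 15.3% ± 1.15 (SD, n = 8). In all, 6 EAE libraries lay above all PBS libraries. The difference in mean log2 ratio was 0.28 (p = 0.00155 in the two-sided exact permutation test, 3 ratios compared). It was 0.40 within EAE 6, 7 and 8 and PBS 5, 7 and 8, where the ranges of 18.6–21.0% and 14.2–15.0% did not overlap (exact p = 0.1, the smallest that 3 against 3 allow). In the other 5 libraries of each group, the difference was 0.21 (exact p = 0.0794). For comparison, the exact permutation test of mean FPKM gave an unadjusted p under 0.05 for 3298 of 17885 single mRNAs. Ratios of other genes were not tested, so the share of ratios that would pass is not known.

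Psmb9 reached 1.40–3.17% of Psmb6 in EAE mice and 0.967–2.34% in PBS libraries, with means of 2.46% ± 0.777 and 1.63% ± 0.469 (SD, n = 8). The EAE libraries fell into EAE 1, 4 and 7, at or below 1.69%, and the other 5, all above every PBS library. The difference in log2 ratio was 0.57 (exact p = 0.0333, two-sided), and leaving out any of EAE 2, 3, 5, 6 or 8 or PBS 1, 4 or 8 took p above 0.05, up to 0.0646 without PBS 4. Psmb8 reached 3.85–12.7% of Psmb5 in EAE libraries and 2.75–8.23% in PBS libraries, a difference of 0.41 on the log2 scale (exact p = 0.143, two-sided). For this ratio the differences within the same sets were 0.25 (exact p = 0.4) and 0.51 (exact p = 0.167). In the edgeR test the counterparts Psmb5 and Psmb7 had log2FC values of −0.21 (unadjusted p = 0.0139, adjusted p = 0.161) and −0.13 (adjusted p = 0.304), and Psmb6 had −0.082 (adjusted p = 0.626), so the fitted values of all 3 counterparts were below 0.

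**Figure D3:**
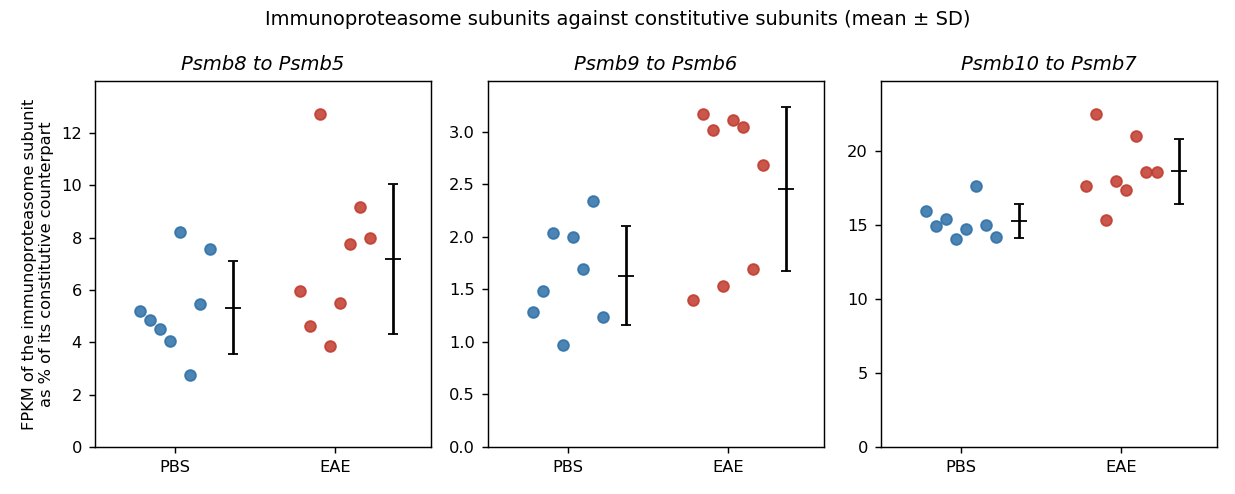
FPKM of Psmb8, Psmb9 and Psmb10 as a percentage of Psmb5, Psmb6 and Psmb7 in each PBS library (blue) and EAE library (red), with mean and SD and axes starting at 0. Psmb10 to Psmb7 lies at 15.3–22.5% in EAE libraries and at 14.1–17.7% in PBS libraries.

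By level per length, the order of the members was B2m, H2-D1, Tapbp, H2-K1, Psmb10, Tap2, Tap1, Psmb8, and then Nlrc5 and Psmb9. Each neighbour down to Tap1 differed the same way in all 16 libraries. Tap1 exceeded Psmb8 in 15 libraries and Psmb8 exceeded Nlrc5 in 16, whereas Nlrc5 exceeded Psmb9 in 8 of 16, so the last pair had no order. The order spans from the 96.3 percentile of the tested mRNAs (B2m) to the 23.6 percentile (Psmb9).

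Several members were low in the same libraries. In PBS 4 all 10 members were below their PBS mean, and in PBS 3 and PBS 6 this held for 8 of 10, while in PBS 5 and PBS 7 it held for none. By FPKM, PBS 4 was the lowest PBS library for H2-K1, H2-D1, Tap1, Tap2, Tapbp, Nlrc5, Psmb9 and Psmb10. EAE 4 was the lowest EAE library for Tap1, Tap2, Tapbp and Nlrc5, and 6 of 10 members were below the PBS mean in it. Averaged over the members as log2(CPM + 1) relative to the PBS mean, libraries ran from −0.34 (PBS 4) to 0.28 (EAE 3), and the group ranges overlapped, with EAE 4 at −0.031 and PBS 5 at 0.23.

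**Figure D4:**
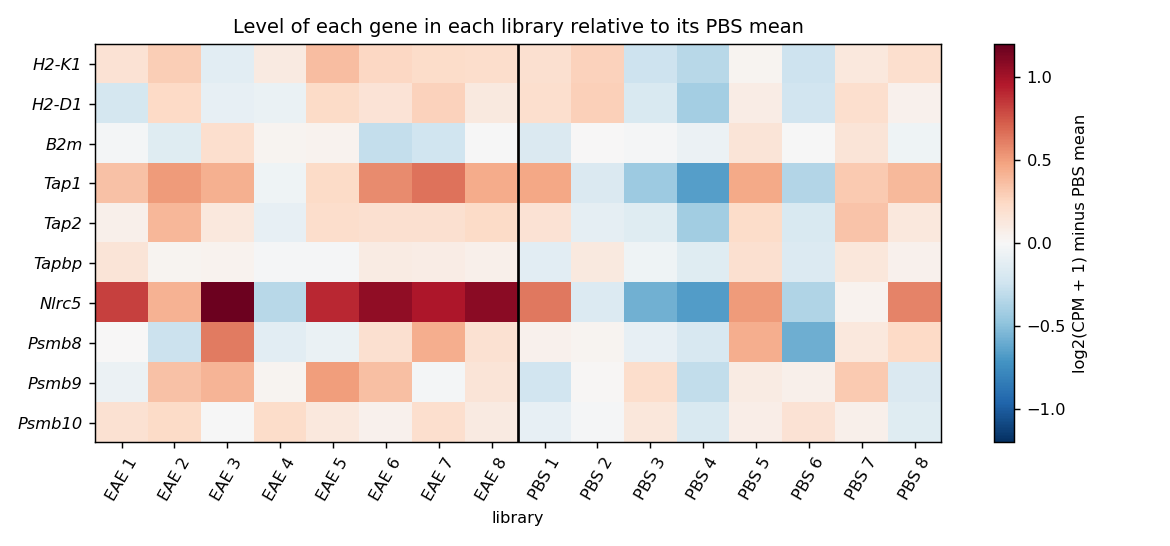
Level of each member (rows) in each library (columns) as log2(CPM + 1) minus the PBS mean, red above and blue below it. PBS 4 is blue throughout, and Nlrc5 is red in all EAE libraries except EAE 4.

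The relation between the transactivator and the other members was examined over the 16 libraries after subtraction of the group means. Tap1 followed Nlrc5 with a Pearson r of 0.85 and a Spearman rho of 0.83 (permutation p = 0.00018 and 0.00047, 9 relations, adjusted p for r over all mRNAs 0.0273), against 1.53% of all mRNAs that passed this threshold with r above 0. Without EAE 4 and PBS 4, the libraries farthest from the median of Nlrc5, r was 0.80. It was 0.73 among EAE libraries, 0.96 among PBS libraries and 0.82 over the 10 libraries outside the sets most alike, but 0.28 over the 6 libraries within them, so the relation was not seen in that set. Psmb8 (r = 0.67, rho = 0.72, permutation p = 0.0054 and 0.00188, adjusted p 0.0717) and Tap2 (r = 0.66, rho = 0.62, permutation p = 0.00867 and 0.0262, adjusted p 0.0870) came next and did not pass after adjustment. For Tap2, r was 0.44 without EAE 4 and PBS 4 and turned to −0.89 over the 6 libraries most alike, and for Psmb8 these values were 0.70 and 0.36. For H2-D1, H2-K1 and Tapbp, r was 0.49, 0.45 and 0.41. It was 0.065 for Psmb9, −0.027 for B2m and −0.41 for Psmb10, with permutation adjusted p values of 0.225 or more for these 6 genes. Over the 6 libraries most alike, r was −0.83 for H2-D1, and without EAE 4 and PBS 4 it was −0.36 for Psmb9 and −0.76 for Psmb10. Among the 45 pairs of members, Tap1 with Tap2 (r = 0.88), H2-K1 with H2-D1 (r = 0.86) and Tap1 with Nlrc5 had the highest r, given as descriptions. These pairs are the subunits of the transporter, the heavy chains, and the transporter gene with the transactivator.

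**Figure D5:**
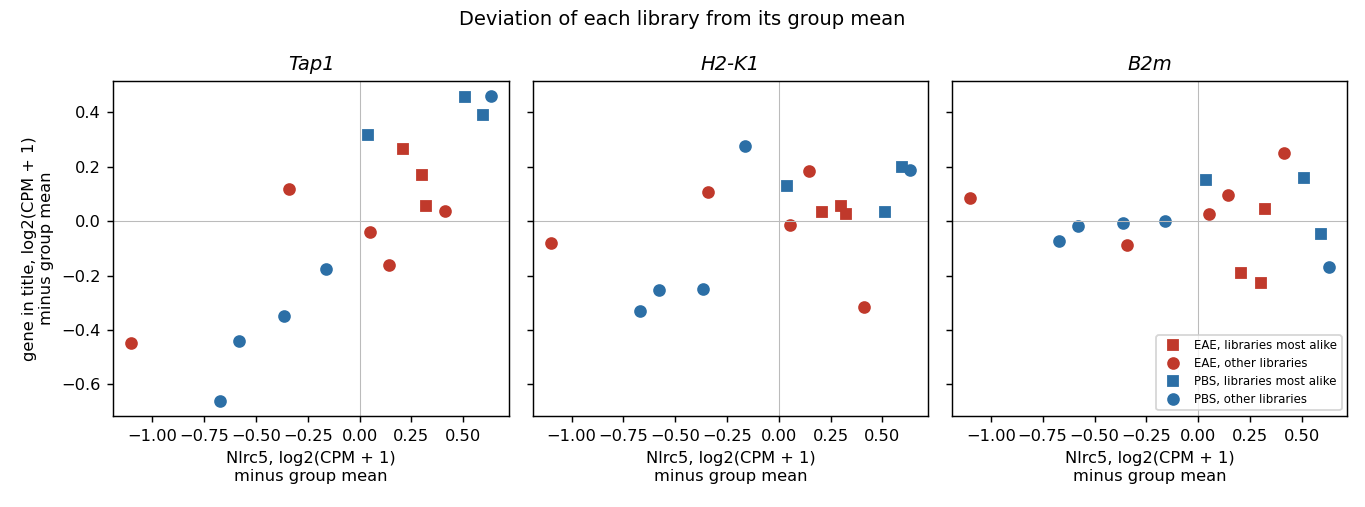
Deviation of Tap1, H2-K1 and B2m (vertical axes) against that of Nlrc5 (horizontal axis) from the group mean, in log2(CPM + 1), for EAE (red) and PBS (blue) libraries, with squares for EAE 6, 7 and 8 and PBS 5, 7 and 8. Tap1 follows Nlrc5 (r = 0.85 over 16 libraries) and B2m does not (r = −0.027).

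The genes outside the list whose levels were most like the mean of the members within groups, among 13302 mRNAs with a mean of at least 1 FPKM, were Mcl1 (r = 0.93), Stat5a (0.92), Mycl (0.92), Hmgxb3 (0.90) and Ripk1 (0.90) over 16 libraries. None of these 5 had an adjusted p under 0.25 between the groups in edgeR.

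Among the partners of the members in the endoplasmic reticulum, the genes that passed the edgeR test were lower in EAE mice. Of 12 other genes for peptide loading and trimming, none was higher and 5 had a lower level at an unadjusted p under 0.05, against 9.52% of all mRNAs, and 2 of these passed after adjustment, against 1.76%. Canx, which encodes the chaperone calnexin that holds newly made heavy chains, fell from 93.2 ± 4.64 FPKM in PBS-treated mice to 81.6 ± 8.01 FPKM in EAE mice (SD, n = 8; log2FC −0.24, SE 0.055, adjusted p = 0.0249 in edgeR). Pdia3, the disulfide isomerase joined to tapasin in the loading complex, fell from 45.8 ± 3.0 to 39.0 ± 5.32 FPKM (log2FC −0.28, SE 0.070, adjusted p = 0.0339 in edgeR). Calr, which encodes calreticulin of the same complex, had a log2FC of −0.26 and an adjusted p of 0.0507 in edgeR. These genes also serve the folding of most other secreted and membrane proteins, and the summed markers of neurons and astrocytes had lower medians in EAE libraries (1713 against 1797 and 1362 against 1521 FPKM). The part of the latter in the former was not tested. When libraries were scaled by their totals alone, the adjusted p was 0.0623 for Canx and 0.0729 for Pdia3 in edgeR. In the remaining 5 libraries of each group, these values were 0.358 and 0.244, in a fit that called 13 of 17461 mRNAs. Of the 16 fits without 1 library, 12 called Canx (adjusted p up to 0.0600 without EAE 2) and 7 called Pdia3 (up to 0.0773 without PBS 2).

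Of 34 genes for non-classical and class I-like heavy chains, 27 were in the tables and 18 were tested, with none at an unadjusted p under 0.05 in edgeR. The smallest p-values belonged to H2-T24 (log2FC 0.18, adjusted p = 0.381), H2-M5 (0.31, adjusted p = 0.542) and H2-Bl (−0.26, adjusted p = 0.600). The 11 remaining subunits of the proteasome core and the 10 genes for its activators and assembly also had no gene at an unadjusted p under 0.05 in edgeR. Psme2, a subunit of the interferon-inducible proteasome activator, had the smallest p of the latter, with a log2FC of 0.14 (adjusted p = 0.393), followed by Psmf1 (0.10, adjusted p = 0.449) and Psmg1 (−0.088, adjusted p = 0.783). Psma1, Psmb4 and Psma3 of the core had log2FC values of −0.085, −0.088 and 0.082.

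Among 26 tested genes for the transcriptional control of class I and its interferon signals, Jak1, a kinase of the interferon receptors, was slightly lower in EAE mice (30.8 ± 1.06 against 33.0 ± 1.46 FPKM, log2FC −0.15, adjusted p = 0.0480 in edgeR), and its adjusted p was 0.182 with library totals alone. The call held in only 4 of the 16 fits without 1 library (adjusted p up to 0.119 without EAE 2). In the remaining 5 libraries of each group the adjusted p was 0.450 in edgeR, in a fit that called 13 of 17461 mRNAs. Genes that were higher at an unadjusted p under 0.05 included, as chosen after their values were seen, Irf7 (log2FC 0.51, adjusted p = 0.0885), Stat2 (0.29, adjusted p = 0.102), Irf1 (0.50, adjusted p = 0.250) and Tyk2 (0.13, adjusted p = 0.283) in edgeR, all of them signal transducers or transcription factors of the interferon response. Ifng itself did not reach the filter of 16 counts.

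The list of interferon-stimulated genes outside antigen presentation had a median log2FC of 0.51, beside 0.17 for the members. All 26 that were tested had a log2FC above 0, against 9417 of 17885 mRNAs. In edgeR, 13 had an unadjusted p under 0.05, against 7.92% of all mRNAs, and 4 rose after adjustment, against 0.66%. Ifit1, which binds foreign RNA, rose from 1.63 ± 0.381 to 2.93 ± 0.725 FPKM (log2FC 0.79, SE 0.17, adjusted p = 0.0173 in edgeR), and its adjusted p stayed below 0.05 in all 16 fits that left out 1 library. Oasl2, of the oligoadenylate synthetase family, had a log2FC of 0.95 (SE 0.23, adjusted p = 0.0306 in edgeR). Usp18, which removes ISG15 from proteins and dampens interferon signalling, had a log2FC of 0.79 (SE 0.20, adjusted p = 0.0382 in edgeR), and Ifit3 had 0.75 (SE 0.19, adjusted p = 0.0387 in edgeR). The calls of Oasl2, Usp18 and Ifit3 were lost in some of the fits without 1 library, with adjusted p values up to 0.0720, 0.0810 and 0.0854. Within the other 5 libraries of each group none of the 4 was called in edgeR (adjusted p 0.126 to 0.366), where 13 of 17461 mRNAs were.

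Of 12 genes in a list of class I receptors and members of their families, not all of which read class I, 11 were in the tables and 6 were tested. Cd8a, a chain of the CD8 co-receptor of T cells, had 10–26 counts in EAE libraries and 5–15 counts in PBS libraries (log2FC 0.95, unadjusted p = 0.00778, adjusted p = 0.123 in edgeR). Lilrb4a and Pirb, inhibitory receptors of myeloid cells, had mean FPKM values of 5.95 and 1.11 in EAE libraries and 3.64 and 0.909 in PBS libraries, with log2FC values of 0.66 (adjusted p = 0.301) and 0.23 (adjusted p = 0.639) in edgeR. Klra3, Klra7 and Klra8, receptors of natural killer cells, had 0 counts in all 16 libraries.

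Markers of the labelled cells and of other cells that carry class I were set beside these results. Of the 17 microglia markers, 15 had a log2FC above 0, against 9417 of 17885 mRNAs. After adjustment in edgeR 2 of them were higher, against 0.66% of all mRNAs, namely Itgam (log2FC 0.46, adjusted p = 0.0018) and Trem2 (log2FC 0.56, adjusted p = 0.0282). Tmem119 and P2ry12, which the authors name as separating resident microglia from macrophages, were not called. Their log2FC values were 0.13 (adjusted p = 0.816) and 0.26 (adjusted p = 0.395) in edgeR. T and NK cell markers (14 of 15 genes in the tables) summed to 3.72–5.59 FPKM in EAE libraries and 3.17–4.66 FPKM in PBS libraries, with Cd3d at 0–7 and 0–10 counts, Cd3e at 1–13 and 0–9 and Cd3g at 0–6 and 0–3. Monocyte and macrophage markers (13 genes) summed to 28.4–36.9 and 22.6–31.3 FPKM, and neutrophil markers (15 genes) to 51.8–103 and 19.9–59.2 FPKM, with 5 of the 15 higher after adjustment in edgeR, against the same 0.66%. B cell markers (5 of 6 genes in the tables) summed to 0.345–1.03 and 0.407–0.775 FPKM, with Ms4a1 at 0–1 and 0–2 counts. Endothelial markers (13 genes) summed to 64.6–95.6 and 60.4–94.5 FPKM. The part of the microglia markers and of these cells in the values of Nlrc5, Tap1 and the other members was not tested.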

How the data were processed

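RNA-seq was performed on 16 libraries, 1 per mouse. The authors filtered the reads, aligned them with HISAT2 2.1.0 and counted them with HTSeq 0.11.2 (submitters' processing notes), and deposited raw counts and FPKM per mRNA. The deposited FPKM were the counts divided by gene length and library total (checked for 7749 mRNAs with over 500 counts in every library, relative spread up to 3.6e-10). No columns were left out. Names and positions came from GENCODE on GRCm38, and promoters from RefSeq.

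edgeR 4.0.16 (R 4.3.3) was run with TMM factors and the quasi-likelihood test on raw counts of mRNAs with at least 16 counts in total, with Benjamini-Hochberg adjustment over all 17885. An mRNA was called at an adjusted p under 0.05. The methods give no filter or block. The subunit ratios were compared by exact permutation, and relations to Nlrc5 by 100000 permutations on log2(CPM + 1). Alternatives were RLE factors, library totals, DESeq2 1.42.0, robust estimation, limma 3.58.1 on FPKM, exact tests of mean FPKM, other filters, a replicate block, a term for the sets of libraries most alike, fits within those sets, and leaving out each library. The count scripts were tested on simulated data.

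The members and gene lists were chosen with earlier results of these data known. Named genes were all members, from each list those past the threshold or otherwise the 3 with the smallest p, the constitutive catalytic subunits, and the 5 mRNAs most like the mean of the members. Calr, Irf7, Stat2, Irf1, Tyk2, Ifng, the Klra genes and the single marker genes fall outside this rule and were named after their values were seen. For lists, "tested" means past the filter. An item that the lists hold is not reported here. Each library is 1 mouse, so p-values measure the spread between mice, which the choice of the 6 libraries most alike makes smaller within them. Same-numbered EAE and PBS libraries correlated at −0.22 to 0.54 in their deviations, with 0.54 for EAE 4 and PBS 4. This check cannot settle whether the numbers stand for a shared batch.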

Additional observations from a re-analysis of the deposited data

How the results depend on the processing

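The number of members with an adjusted p under 0.05 was 0 in all settings run except 5. It was 1 (Nlrc5) with the replicate block (adjusted p = 0.0222 in edgeR), with a term for the sets of libraries most alike (adjusted p = 0.0256 in edgeR) and without EAE 4 or PBS 1, and 2 (Nlrc5 and B2m) within EAE 6, 7 and 8 and PBS 5, 7 and 8. Over the 16 fits without 1 library it was 0 to 1. No setting gave a member with |log2FC| over 1 as well. The adjusted p of Nlrc5 ranged from 0.000534 to 0.256 over 13 other settings, and its direction was kept in each. The log2FC reversed for B2m within the other 5 libraries of each group (0.072) and for Tap2 (−0.025) and Tapbp (−0.046) within EAE 6, 7 and 8 and PBS 5, 7 and 8, and none of these reversed values was called. The cause was not tested. The ratio of Psmb9 to Psmb6 differed by 0.47 to 0.68 without 1 library, and the number of ratios with an exact p under 0.05 was 1 to 2. That of Psmb10 to Psmb7 stayed at 0.24 to 0.32 (exact p 0.000466 to 0.0028). The relation of Tap1 to Nlrc5 had r of 0.82 to 0.88 without 1 library and 0.85 on log2(FPKM + 0.1), both chosen after seeing the data. Over all mRNAs, 433 were called in edgeR (118 higher, 315 lower), against 226 higher and 103 lower with library totals, where the median log2FC moved from 0.0092 to 0.060. The count was 899 with DESeq2 (297 higher), 205 and 237 with limma (132 and 157 higher), 0 by exact permutation (3298 at an unadjusted p under 0.05), 517 with the replicate block, 768 with the term for the sets, 4147 and 13 within the sets, and 144 (without PBS 2) to 1317 (without EAE 4) without 1 library. The replicate numbers gave a block only as a hint, since 2 of 8 numbers matched best with themselves. Depth limits Psmb9 most, with 11–44 counts per library.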
